A study of Mus musculus with 20 samples.

Results

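Eda2r and 3 genes of the ectodysplasin pathway, Eda, Edar and Edaradd, were followed through 12 RNA libraries of sorted medullary thymic epithelial cells (mTEC). These 4 genes were taken by symbol from a deposited table of 51810 mouse genes and are not all genes of that pathway. All 4 were among the 28932 genes with enough counts to be tested. Eda2r was chosen by its measured rise, cHyper against WT, in mTEClo in these same libraries, so its values are a description and no test of it is given. The other 3 genes were taken for their place in the pathway.

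Ectodysplasin, the product of Eda, is a ligand of the tumour necrosis factor (TNF) superfamily that is known for the formation of hair, teeth and sweat glands. One splice form binds the receptor Edar, which signals through the adaptor Edaradd to the NF-kB transcription factors. A slightly shorter splice form binds the receptor Eda2r, which does not use Edaradd, and EDA2R has been described as a target of p53 in human cells. In the thymus, mTEC depend on other receptors of the same superfamily, RANK (Tnfrsf11a), CD40 and the lymphotoxin beta receptor, for their growth and maturation.

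The libraries came from mice of 4 to 5 weeks and fell in 4 groups of 3: cHyper mTEClo, WT mTEClo, cHyper mTEChi and WT mTEChi. The labels give the genotypes as Trp53-cHyper and Trp53-WT; the labels do not spell out cHyper, its allele or any driver of recombination. By convention mTEChi carry more surface MHC class II and CD80 than mTEClo, but the labels do not give the gates of the sort. Per the protocols, EpCAM-positive stroma was enriched on beads, 75000 mTEC were sorted per sample, and mRNA was sequenced in pairs from strand-marked libraries. The title of the series names p53 repression, chromatin accessibility noise and immune tolerance, and the design sets cHyper against WT within each cell type and mTEChi against mTEClo within each genotype.

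The libraries of replicates 1 and 2 held 42.08 to 47.93 M fragments and those of replicate 3 held 22.02 to 25.31 M. In replicate 3, all 4 libraries had 24640 to 37525 fragments of Xist and 0 of Ddx3y, whereas the other 8 had at most 361 of Xist and at least 2745 of Ddx3y, so sex and depth changed together with replicate 3 in all 4 groups. Trp53 itself had 154 to 177 CPM in cHyper mTEClo against 136 to 138 CPM in WT mTEClo, and 129 to 138 CPM in cHyper mTEChi against 98 to 107 CPM in WT mTEChi. An RNA level of Trp53 is no check of the genotype labels, because the change in the protein is not known here. Of 2 known targets of p53, Cdkn1a, the cell cycle inhibitor p21, fell in cHyper in mTEClo (log2 -0.89, edgeR adjusted p = 0.000328) and in mTEChi (log2 -0.73, edgeR adjusted p = 0.00418). Mdm2, which encodes the ubiquitin ligase of p53, did not pass in mTEClo (log2 0.09, edgeR adjusted p = 0.576) or in mTEChi (log2 -0.25, edgeR adjusted p = 0.192). The 8 mTEC markers, among them Epcam, Krt5 and Aire, summed to 10468 to 21506 CPM and none was at 0 in any group. Cd80 had 151 to 176 CPM in cHyper mTEChi and 191 to 216 CPM in WT mTEChi, against 2.79 to 4.12 CPM in cHyper mTEClo and 4.65 to 9.03 CPM in WT mTEClo.

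The promoters of Eda2r, Edar and Edaradd are shown because Eda2r followed a course of its own and the other pair moved together. Each is 300 bases, 250 before and 50 after the annotated start in RefSeq on GRCm38.p6, the assembly behind mm10, read on the gene's own strand. They lie at chrX:97377160-97377459 (minus strand), chr10:58675647-58675946 (minus strand) and chr13:12520401-12520700 (minus strand). Capitals mark a match to TATAAA, a motif that was added after the sequences had been seen.
Eda2r: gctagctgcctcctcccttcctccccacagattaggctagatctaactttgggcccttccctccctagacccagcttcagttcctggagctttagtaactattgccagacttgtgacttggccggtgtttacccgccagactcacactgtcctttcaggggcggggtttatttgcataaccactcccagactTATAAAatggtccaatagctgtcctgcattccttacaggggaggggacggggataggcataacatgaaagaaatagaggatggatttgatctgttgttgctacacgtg
Edar: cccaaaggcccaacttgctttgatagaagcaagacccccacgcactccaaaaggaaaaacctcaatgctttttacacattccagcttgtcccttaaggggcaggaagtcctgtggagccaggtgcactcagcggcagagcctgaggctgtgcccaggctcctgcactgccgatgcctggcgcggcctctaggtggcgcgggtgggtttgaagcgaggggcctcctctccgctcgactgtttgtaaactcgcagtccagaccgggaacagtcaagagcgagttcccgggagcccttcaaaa
Edaradd: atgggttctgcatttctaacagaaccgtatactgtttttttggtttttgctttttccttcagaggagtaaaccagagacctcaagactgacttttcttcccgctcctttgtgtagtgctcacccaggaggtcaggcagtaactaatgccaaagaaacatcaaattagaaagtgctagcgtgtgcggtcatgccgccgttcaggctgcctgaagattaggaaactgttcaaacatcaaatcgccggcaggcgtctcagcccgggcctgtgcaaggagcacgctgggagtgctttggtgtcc
The single match in the Eda2r promoter began 58 bases before the start, on the gene's strand, and overlapped no other motif searched. TATAAA, on either strand, was present in 13.6% of 32851 promoters of the same length. The p53 half-site consensus, also on both strands, was present in 8.36% of those promoters and the kappaB consensus in 4.51%, and neither matched these windows or that of Eda. An absent match says only that these letters are not in this window. The G and C share was 50.3% for Eda2r, 58.7% for Edar, 49.3% for Edaradd and 74.3% for Eda, against a median of 52.7% over all promoters.

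Eda2r (ENSMUSG00000034457) lies on mm10 chromosome X from 97333840 to 97377216, on the minus strand. It encodes the receptor of the shorter ectodysplasin splice form. Its normalised level was 26.9, 25.4 and 23.7 CPM, fragment counts scaled to the size of the library, in replicates 1, 2 and 3 of cHyper mTEClo, and 1.28, 1.78 and 1.27 CPM in those of WT mTEClo. It was 8.32, 7.54 and 7.65 CPM in cHyper mTEChi, and 9.78, 8.53 and 6.1 CPM in WT mTEChi. The 3 cHyper mTEClo libraries were the highest of all 12 and the 3 WT mTEClo libraries the lowest, while the mTEChi libraries of both genotypes lay between and overlapped each other. The counts behind these levels were 2860 fragments in cHyper mTEClo, 158 in WT mTEClo, 892 in cHyper mTEChi and 1024 in WT mTEChi.

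**Figure D1:**
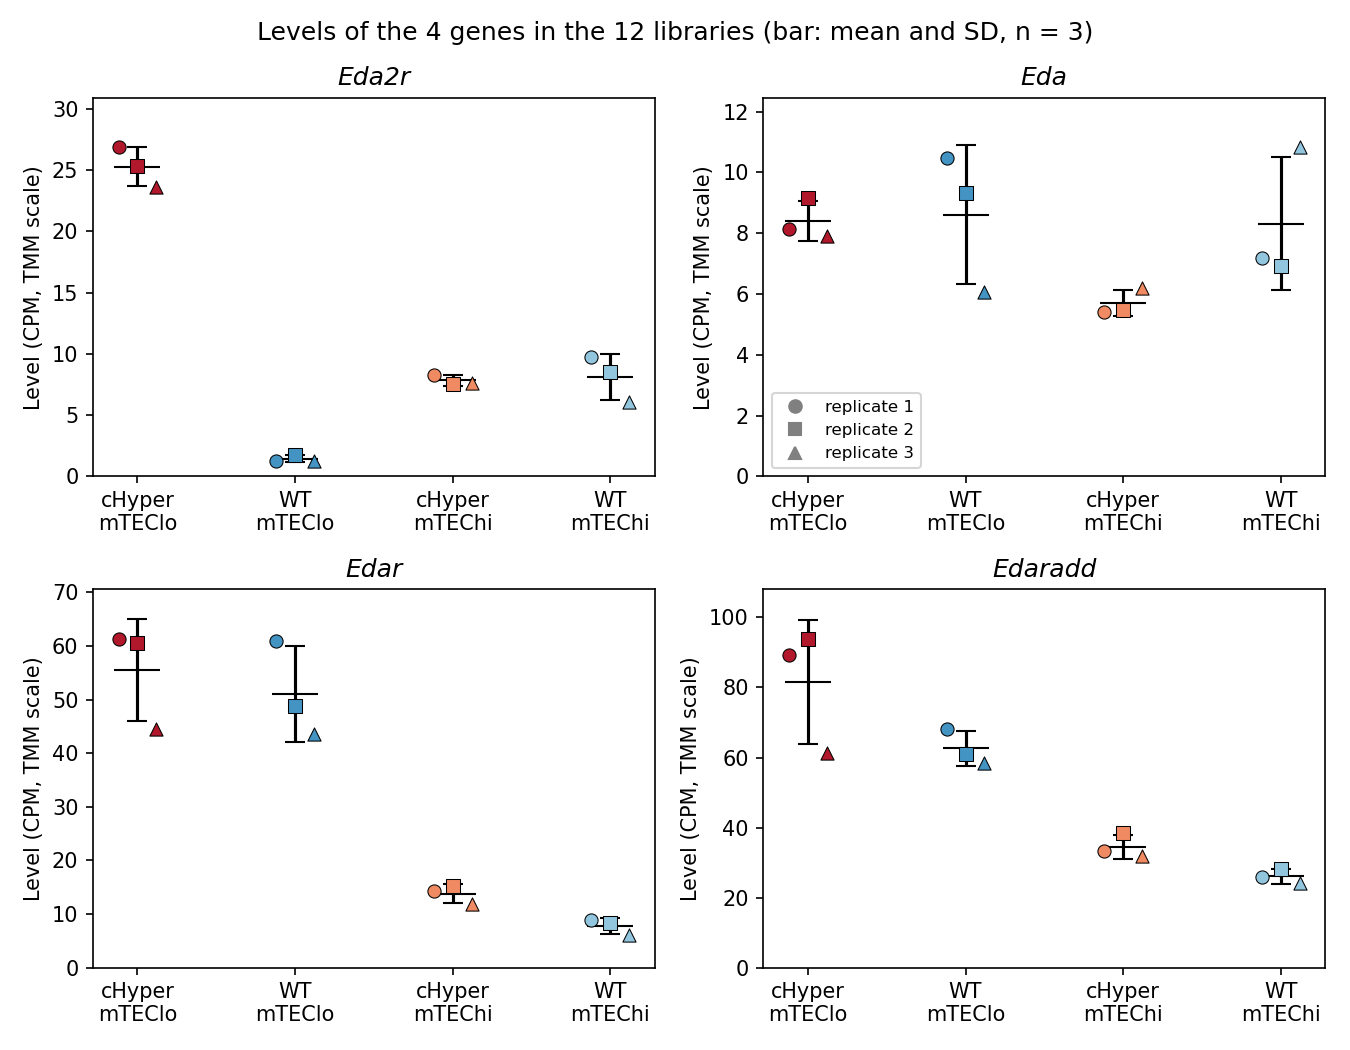
Level of each of the 4 genes (CPM on the TMM scale, vertical axis from 0) in the 12 libraries by group, with a horizontal line and bars for the mean and SD (n = 3) and a symbol for each replicate number. Eda2r stands at 25.3 CPM in cHyper mTEClo and 1.44 CPM in WT mTEClo with no overlap, whereas Edar and Edaradd separate by cell type.

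The mean of Eda2r was 25.3 ± 1.61 CPM in cHyper mTEClo and 1.44 ± 0.295 CPM in WT mTEClo (SD, n = 3 each), 17.3-fold higher in cHyper (log2 4.11, SE 0.20). In mTEChi it was 7.84 ± 0.421 CPM in cHyper and 8.14 ± 1.87 CPM in WT, a log2 difference of -0.06 (SE 0.17) that lay within the spread of the libraries. Among the 20925 genes that averaged 1 CPM or more, the rise of Eda2r ranked 61 from the top in mTEClo and 13846 in mTEChi. The order between the cell types turned with genotype. In cHyper the level was 3.23-fold lower in mTEChi than in mTEClo (log2 -1.69, SE 0.17), and in WT it was 5.59-fold higher in mTEChi than in mTEClo (log2 2.48, SE 0.20). The genotype effect in mTEClo exceeded that in mTEChi by 4.17 (SE 0.26) on the log2 scale.

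The cHyper against WT difference of Eda2r in mTEClo was as large in either set of libraries: on the log2 CPM scale it was 4.11 over replicates 1 and 2, and 4.22 in replicate 3. Per length, Eda2r had 9.06 ± 0.546 TPM, which scales counts by gene length and library, in cHyper mTEClo and 0.522 ± 0.103 TPM in WT mTEClo (SD, n = 3 each). A sum over many cells cannot tell more cells of a type from more RNA per cell. Aire, the regulator that marks mature mTEC, had 38.6 to 51.4 CPM in cHyper mTEClo and 11.3 to 16.2 CPM in WT mTEClo, against 1281 to 1885 CPM in cHyper mTEChi and 1918 to 1923 CPM in WT mTEChi. Cd80, also higher in mTEChi, went the other way, with 2.79 to 4.12 CPM in cHyper mTEClo and 4.65 to 9.03 CPM in WT mTEClo. The part of mature cells in the Eda2r difference was not tested.

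Marker lists of other cell types were summed in the mTEClo groups as well. The skeletal muscle, cortical, endothelial and B cell sums did not overlap between the genotypes. The thymocyte, fibroblast, keratinocyte and myeloid sums did. A sum does not tell whether other cells or the mTEC themselves made the RNA. The calls below stand beside 4.53% higher and 4.64% lower in cHyper mTEClo over all tested genes. The summed level of 6 skeletal muscle markers was 108 to 129.8 CPM in cHyper mTEClo and 64.6 to 72.1 CPM in WT mTEClo, with 3 higher and 1 lower by the edgeR test. The 5 cortical epithelial markers summed to 349.6 to 476 CPM in cHyper mTEClo and 274 to 343 CPM in WT mTEClo, with 1 higher. The 8 thymocyte markers summed to 22.4 to 44.5 CPM in cHyper mTEClo and 15 to 28.8 CPM in WT mTEClo, and the 8 fibroblast markers to 164 to 230 CPM in cHyper mTEClo and 151 to 173 CPM in WT mTEClo, with 0 thymocyte markers called and 2 fibroblast markers higher and 1 lower. The 6 keratinocyte markers summed to 88.1 to 127 CPM in cHyper mTEClo and 116 to 152 CPM in WT mTEClo, with 1 called lower. The 5 endothelial markers summed to 5.98 to 6.6 CPM in cHyper mTEClo and 8.24 to 9.9 CPM in WT mTEClo. The 5 myeloid markers summed to 27.7 to 45.4 CPM in cHyper mTEClo and 28.2 to 32.4 CPM in WT mTEClo, and the 4 B cell markers to 4.6 to 5.45 CPM in cHyper mTEClo and 5.74 to 9.48 CPM in WT mTEClo. Of these last 3 lists, 1 myeloid marker was called lower. No marker of these lists was at 0 in a group, and their part in the Eda2r difference was not tested.

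Eda (ENSMUSG00000059327), the ligand gene, spans mm10 chromosome X from 99975606 to 100400762 on the plus strand. Its level was 8.13, 9.15 and 7.9 CPM in replicates 1, 2 and 3 of cHyper mTEClo, and 10.5, 9.33 and 6.05 CPM in those of WT mTEClo. It was 5.42, 5.49 and 6.21 CPM in cHyper mTEChi, and 7.2, 6.91 and 10.8 CPM in WT mTEChi. The groups overlapped in mTEClo, and the 3 cHyper mTEChi libraries lay below the 3 WT mTEChi libraries. Gene counts do not tell which splice form was made, so the ligand of Edar and that of Eda2r cannot be told apart. The table also lists 4 small features inside Eda on the same strand, of which Gm14828 had the most counts, 99 fragments over the 12 libraries; the sources used here do not say how shared reads were assigned.

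Eda did not pass the genotype test in either cell type. The mean was 8.39 ± 0.665 CPM in cHyper mTEClo and 8.61 ± 2.29 CPM in WT mTEClo (log2 -0.05, SE 0.21, edgeR adjusted p = 0.954). In mTEChi it was 5.71 ± 0.437 CPM in cHyper and 8.31 ± 2.18 CPM in WT (log2 -0.54, SE 0.21, edgeR adjusted p = 0.25). Between the cell types, Eda fell in mTEChi relative to mTEClo in cHyper (log2 -0.56, SE 0.21, edgeR adjusted p = 0.0314). That call was lost when the libraries were scaled by their totals (edgeR adjusted p = 0.116), and without cHyper mTEChi replicate 1 (0.0814) or 2 (0.0839) or cHyper mTEClo replicate 2 (0.093) in the edgeR test. In WT the difference was not called (log2 -0.07, SE 0.21, edgeR adjusted p = 0.781), and its sign turned with other scalings (0.03 with DESeq2 size factors, 0.15 with library totals). It depended on the replicates there: Eda was lower in mTEChi by a log2 CPM difference of -0.49 over replicates 1 and 2, and higher by 0.84 in replicate 3. Over replicates 1 and 2 alone it was called lower (log2 -0.54, edgeR adjusted p = 0.013).

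Edar (ENSMUSG00000003227), the receptor that signals through Edaradd, spans mm10 chromosome 10 from 58600789 to 58675654 on the minus strand. Its level was 61.4, 60.6 and 44.5 CPM in replicates 1, 2 and 3 of cHyper mTEClo, and 60.9, 48.7 and 43.5 CPM in those of WT mTEClo. It was 14.3, 15.3 and 11.8 CPM in cHyper mTEChi, and 8.91, 8.34 and 6.03 CPM in WT mTEChi. Every mTEClo library lay above every mTEChi library, the genotypes overlapped in mTEClo, and in mTEChi each cHyper library lay above each WT library. Replicate 3 was the lowest of its group in all 4 groups.

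Edar was the only one of Eda, Edar and Edaradd to pass the genotype test in this fit, and only in mTEChi. There it averaged 13.8 ± 1.8 CPM in cHyper and 7.76 ± 1.53 CPM in WT (SD, n = 3 each), and it rose in cHyper (log2 0.83, SE 0.18, edgeR adjusted p = 0.0265). The call was lost without cHyper mTEChi replicate 1 (edgeR adjusted p = 0.101) or 2 (0.122) or WT mTEChi replicate 2 (0.0757) or 3 (0.119), with log2 changes of 0.68 to 0.87. With the replicate number as a block it was kept (log2 0.84, edgeR adjusted p = 0.00053). In mTEClo Edar averaged 55.5 ± 9.49 CPM in cHyper and 51 ± 8.91 CPM in WT, and did not pass (log2 0.12, SE 0.17, edgeR adjusted p = 0.732).

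In the list of mTEC markers, 3 genes that mark mTEClo stood higher in the same cHyper mTEChi libraries. Krt5, a basal keratin, had 1078 to 1691 CPM in cHyper mTEChi and 567 to 781 CPM in WT mTEChi. Krt14, its partner, had 479 to 577 CPM in cHyper mTEChi and 223 to 258 CPM in WT mTEChi. Ccl21a, a chemokine of mTEClo, had 517 to 1012 CPM in cHyper mTEChi and 328 to 399 CPM in WT mTEChi. All 3 were higher in mTEClo, where none had under 1978 CPM in any library. Of the other markers in the list, Aire had 1281 to 1885 CPM in cHyper mTEChi and 1918 to 1923 CPM in WT mTEChi. Cd80 had 151 to 176 CPM in cHyper mTEChi and 191 to 216 CPM in WT mTEChi. Epcam, Krt8 and H2-Aa overlapped between the genotypes in mTEChi. Genes outside that list that were higher in mTEClo went either way between genotypes in mTEChi. Tnfrsf1a rose in cHyper (log2 0.46), and Fst (log2 -0.05) and Ccn2 (log2 -0.07) did not. These genes were picked after their values were seen and do not stand for all such genes. The part of Krt5, Krt14 and Ccl21a in the Edar difference was not tested.

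Edaradd (ENSMUSG00000095105), the cytoplasmic adaptor of Edar, spans mm10 chromosome 13 from 12472632 to 12520438 on the minus strand. Its level was 89.4, 94.0 and 61.2 CPM in replicates 1, 2 and 3 of cHyper mTEClo, and 68.2, 61.1 and 58.5 CPM in those of WT mTEClo. It was 33.3, 38.4 and 31.8 CPM in cHyper mTEChi, and 26.0, 28.2 and 24.1 CPM in WT mTEChi. The mTEClo libraries of both genotypes lay above all mTEChi libraries. Replicates 1 and 2 of cHyper mTEClo lay above every WT mTEClo library and replicate 3 did not, while in mTEChi the genotypes did not overlap.

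In mTEClo Edaradd averaged 81.5 ± 17.7 CPM in cHyper and 62.6 ± 5.07 CPM in WT, a difference that did not pass (log2 0.38, SE 0.14, edgeR adjusted p = 0.115). It passed once the replicate number was a block in the fit (log2 0.37, edgeR adjusted p = 0.0347), over replicates 1 and 2 alone (log2 0.49, edgeR adjusted p = 0.0263) and without cHyper mTEClo replicate 3 (log2 0.54, edgeR adjusted p = 0.00969). The log2 CPM difference was 0.51 over replicates 1 and 2, and 0.07 in replicate 3. In mTEChi it averaged 34.5 ± 3.44 CPM in cHyper and 26.1 ± 2.08 CPM in WT, and did not pass (log2 0.40, SE 0.14, edgeR adjusted p = 0.202).

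Of Eda, Edar and Edaradd, 0 of 3 passed the genotype test in mTEClo, where 4.53% of the 28932 tested genes were called higher in cHyper and 4.64% lower. At an unadjusted p under 0.05 the count was 1, Edaradd, and DESeq2 and limma-voom called 0 of the 3. Neither of those 2 fits held the replicate block, with which Edaradd passed in edgeR. In mTEChi 1 of 3 passed, Edar, where 1.56% of genes were called higher in cHyper and 0.418% lower. Scaling by DESeq2 size factors or by library totals moved the share of called genes that were higher in cHyper mTEChi to 66% and 64.4%, against 78.8% with TMM scaling. The genotype effects of mTEClo and mTEChi did not differ by the test for any of the 3, where 0.926% of genes had a called positive difference and 1.13% a called negative one. At an unadjusted p under 0.05 the count was again 1, Edar, and DESeq2 and limma-voom again called 0. For Edar the difference of the effects was -0.71 (SE 0.24, edgeR adjusted p = 0.18), and it passed with the replicate block (-0.72, edgeR adjusted p = 0.0116).

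Edar and Edaradd fell in mTEChi relative to mTEClo in both genotypes. In cHyper, Edar averaged 13.8 ± 1.8 CPM in mTEChi and 55.5 ± 9.49 CPM in mTEClo (log2 -2.0, SE 0.18, edgeR adjusted p = 1.64e-07). In WT it averaged 7.76 ± 1.53 CPM in mTEChi and 51 ± 8.91 CPM in mTEClo (log2 -2.71, SE 0.18, edgeR adjusted p = 7.27e-09). The fall of Edaradd was smaller and near equal in the genotypes, with a log2 change of -1.24 in cHyper (SE 0.14, edgeR adjusted p = 2.96e-06) and -1.26 in WT (SE 0.15, edgeR adjusted p = 2.18e-06). With Eda, 3 of 3 were called lower in mTEChi in cHyper, where 38.7% of all tested genes were called higher and 25.8% lower. In WT 2 of 3 were called lower, where 40.2% of genes were called higher and 29.4% lower. The plot of fitted differences sets these values beside those of Eda2r, which is lower in mTEChi than in mTEClo only in cHyper.

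**Figure D2:**
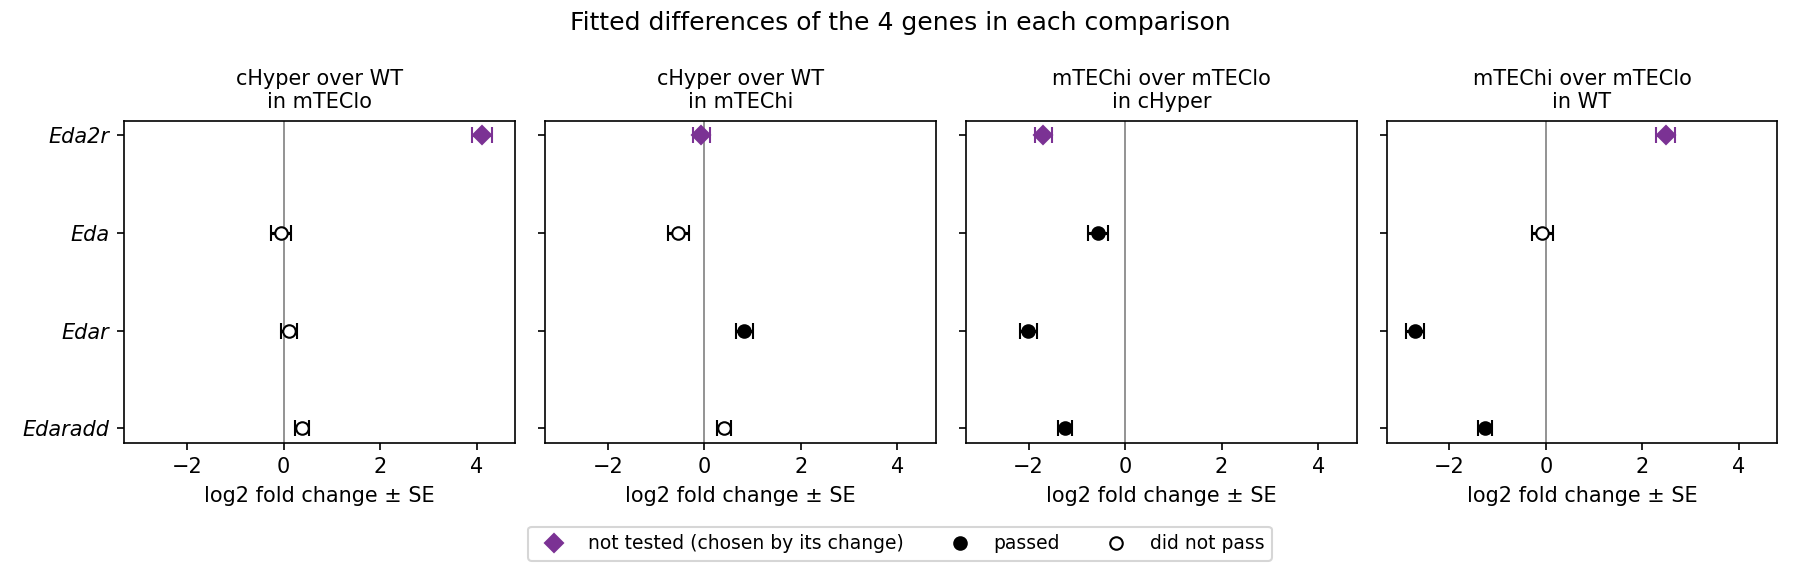
Fitted log2 fold change with its SE (horizontal axis) of the 4 genes in each of the 4 comparisons, from the edgeR fit of all 12 libraries. Filled circles passed at an adjusted p under 0.05, open circles did not, and the diamonds of Eda2r were not tested; Eda2r stands at 4.11 for cHyper over WT in mTEClo and near 0 in mTEChi.

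Per length, the 4 genes changed places between the groups. In cHyper mTEClo Edar had 32.1 ± 5.12 TPM, Edaradd 25.7 ± 5.24 TPM, Eda2r 9.06 ± 0.546 TPM and Eda 2.59 ± 0.153 TPM. In WT mTEClo Edar had 30.1 ± 6.32 TPM, Edaradd 20.1 ± 2.32 TPM, Eda 2.71 ± 0.793 TPM and Eda2r 0.522 ± 0.103 TPM. Eda2r was thus the least abundant of the 4 in WT mTEClo and above its ligand in cHyper mTEClo. In cHyper mTEChi Edaradd had 11.9 ± 1.23 TPM, Edar 8.73 ± 1.35 TPM, Eda2r 3.06 ± 0.318 TPM and Eda 1.92 ± 0.0991 TPM. In WT mTEChi Edaradd had 9.59 ± 1.02 TPM, Edar 5.26 ± 1.27 TPM, Eda2r 3.41 ± 0.952 TPM and Eda 2.96 ± 0.653 TPM. The SD intervals of Edar and Edaradd overlapped in cHyper mTEClo, and those of Eda2r and Eda overlapped in WT mTEChi.

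The levels of Edar and Edaradd followed each other over the 12 libraries (Pearson r = 0.98 of log2 CPM), a description that rests mainly on the gap between mTEClo and mTEChi. Eda2r did not follow the others, with r = -0.08 against Eda, -0.08 against Edar and 0.07 against Edaradd. The genes most like Edar over the 12 libraries were Lama3, a chain of laminin, Grhl2, an epithelial transcription factor, and Fgfr2, a fibroblast growth factor receptor, each with r = 0.997 or 0.996 among 20925 genes. Fgfr2, as an example, averaged 53 CPM in cHyper mTEChi and 25.0 CPM in WT mTEChi, and 463 CPM in cHyper mTEClo and 412 CPM in WT mTEClo. Those most like Edaradd were 1700025G04Rik, Gm10851 and Fbxl7 (r = 0.993 to 0.991). Those most like Eda reached only r = 0.833 (Spats1), 0.808 (Dnaaf5) and 0.795 (Apmap).

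The 8 genes most like Eda2r over the 12 libraries had r of 0.934 to 0.955 and were Ssh2, Brinp1, Palm3, Tbc1d30, Cpz, Anks1b, Pdzrn3 and Tmem56. They were chosen for this likeness, so their differences are given without a test. Palm3 had 22, 24.0 and 10.2 CPM in replicates 1, 2 and 3 of cHyper mTEClo, and 1.84, 1.16 and 0.844 CPM in those of WT mTEClo. Cpz, a carboxypeptidase, had 40.4, 42.9 and 42.4 CPM in cHyper mTEClo, and 0, 3 and 1 fragments in the libraries of WT mTEClo. Brinp1 averaged 32.4 CPM in cHyper mTEClo and 8.46 CPM in WT mTEClo, and Ssh2, a phosphatase acting on cofilin, 37.6 CPM in cHyper mTEClo and 22 CPM in WT mTEClo. All 8 were highest in cHyper mTEClo and lowest in WT mTEClo by their group means. The range was wide, from a log2 difference of 0.77 for Ssh2 to 3.83 for Palm3 among the 7 other than Cpz. Cpz also stood 3.13-fold higher in cHyper than in WT in mTEChi, where Eda2r was level.

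**Figure D3:**
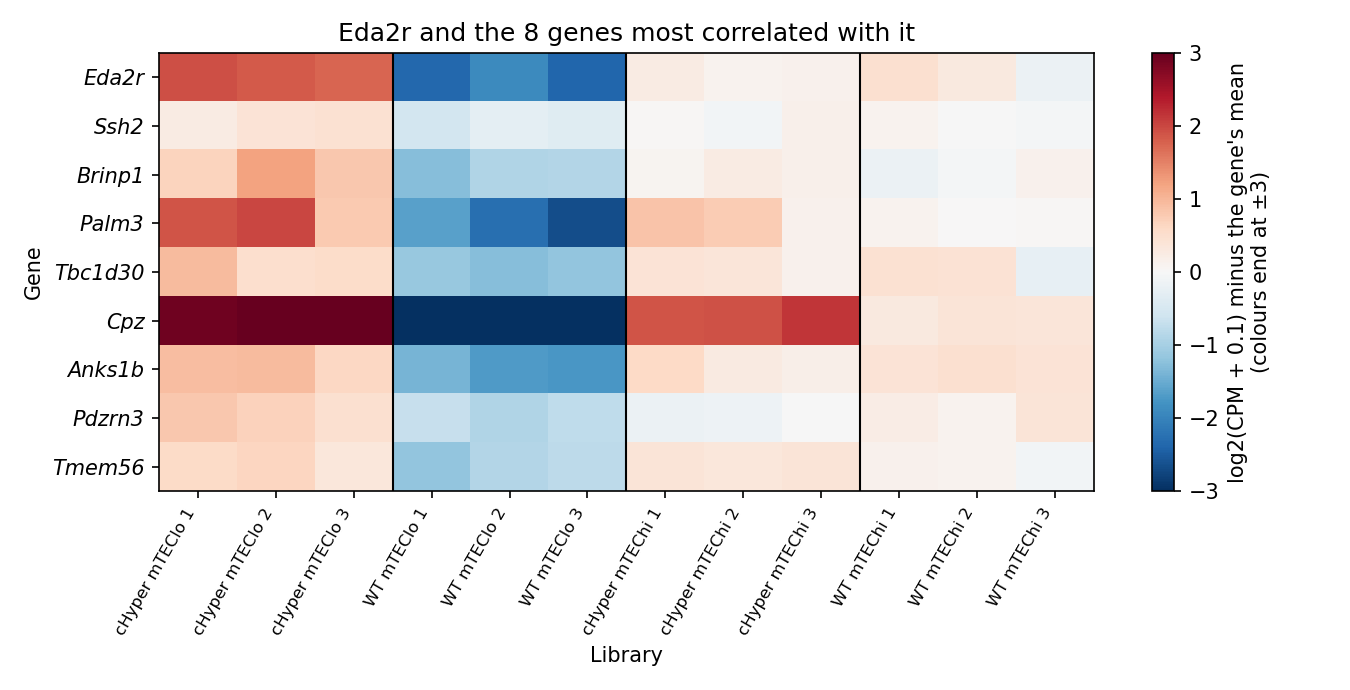
Level of Eda2r and the 8 genes most correlated with it (vertical axis) in each of the 12 libraries (horizontal axis, groups divided by lines), as log2(CPM + 0.1) minus the gene's mean, with colours that end at ±3. All 9 genes are above their mean in the cHyper mTEClo libraries and below it in the WT mTEClo libraries; Cpz has 0 to 3 fragments in each WT mTEClo library.

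The neighbouring gene Pgr15l lies 252 kb from Eda2r and had 4 fragments in all of cHyper mTEClo and 0 in WT mTEClo, against 5.8 CPM in cHyper mTEChi and 8.82 CPM in WT mTEChi. Among the neighbours of the other members, only Tmem28, 127 kb before Eda, passed a genotype test, and fell in cHyper mTEClo (0.369 CPM, against 0.937 CPM in WT mTEClo; log2 -1.36, SE 0.32, edgeR adjusted p = 0.0142). The neighbours Awat2, Ccdc138, BB019430, Lgals8 and Gm30239 did not pass in either cell type.

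Among the cytoplasmic genes that carry receptor signals to NF-kB and JNK, 1 passed the genotype test in mTEClo. Of 24 such genes, all tested, 1 was called higher in cHyper mTEClo and 0 lower, beside 4.53% higher and 4.64% lower over all tested genes. At an unadjusted p under 0.05 the count was 7 of 24. The share of all genes at that threshold is not given, so the count does not show an excess. The list's median log2 change was 0.10, against 0.00 over all tested genes. The gene was Mapk9, which encodes a JNK kinase, with 69.9 ± 8.04 CPM in cHyper mTEClo and 51.6 ± 4.39 CPM in WT mTEClo (log2 0.44, SE 0.11, edgeR adjusted p = 0.023). That call was lost without cHyper mTEClo replicate 1 or 2, without WT mTEClo replicate 2 or 3, or over replicates 1 and 2 alone, with edgeR adjusted p of 0.0537 to 0.113. With the replicate block 5 of the 24 were called, a count without the share of all genes in that fit. The added genes were Cyld (log2 0.29) and Ikbkb (0.24), which rose, and Map3k14 (-0.37) and Nfkbia (-0.27), which fell (edgeR adjusted p = 0.0204 to 0.0431). In mTEChi 0 of 24 were called, beside 1.56% higher and 0.418% lower over all tested genes. There 3 had an unadjusted p under 0.05, and DESeq2 and limma-voom called 0. With the block Mapk9 and Cyld were called in mTEChi (edgeR adjusted p = 0.0264 and 0.0446).

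Between the cell types, 8 of 24 were called higher and 8 lower in mTEChi in cHyper, beside 38.7% higher and 25.8% lower over all tested genes. In WT 9 were called higher and 8 lower, beside 40.2% and 29.4%, so the shares in the list lay near those of all genes. With the replicate block 21 were called in cHyper, against 16 without it. Traf6, the ubiquitin ligase that binds Edaradd, rose to 147 ± 1.55 CPM in cHyper mTEChi, against 62.0 ± 1.21 CPM in cHyper mTEClo (log2 1.24, edgeR adjusted p = 9.79e-08). Tab1, a partner of the kinase Tak1, fell to 19.7 ± 1.31 CPM in cHyper mTEChi, against 82.1 ± 9.95 CPM in cHyper mTEClo (log2 -2.06, edgeR adjusted p = 1.59e-09). Tnfaip3, which encodes the inhibitor A20 of NF-kB signalling, fell by 1.49 on the log2 scale in cHyper mTEChi (edgeR adjusted p = 3.77e-08) and by 1.65 in WT mTEChi (edgeR adjusted p = 9.72e-09). Traf6 in WT mTEChi also rose (log2 1.46, edgeR adjusted p = 1.38e-08), and Tab1 fell there (log2 -1.98, edgeR adjusted p = 1.46e-09).

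Of 11 genes described downstream of Edar in mouse skin placodes, all tested, 5 were called lower and 1 higher in cHyper mTEClo, beside 4.64% lower and 4.53% higher over all tested genes. The other 5 did not pass. The list's median log2 change of 0.00 was that of Foxi3, which had 0 fragments in both mTEClo groups, so it is not informative. Dkk4 (6 fragments in cHyper mTEClo, 2 in WT mTEClo) and Shh (22 and 15) were near 0 there as well, so a call was hardly possible. Cxcl10, an interferon-induced chemokine, had 189 ± 11.4 CPM in cHyper mTEClo and 571 ± 147 CPM in WT mTEClo (log2 -1.60, SE 0.16, edgeR adjusted p = 1.39e-05). Ccn2, a matrix-associated growth factor, had 15.6 ± 4.17 CPM in cHyper mTEClo and 45.2 ± 18 CPM in WT mTEClo (log2 -1.54, edgeR adjusted p = 0.00121). Fst, which encodes the activin antagonist follistatin, had 84.2 ± 18.8 CPM in cHyper mTEClo and 153 ± 27 CPM in WT mTEClo (log2 -0.86, edgeR adjusted p = 0.00369). Wnt10b, a Wnt ligand, was the gene that rose, with 22.1 ± 4.28 CPM in cHyper mTEClo and 8.87 ± 3.5 CPM in WT mTEClo (log2 1.31, edgeR adjusted p = 0.00174). These 4 were called under every alternative tried.

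The falls of Cxcl11 (log2 -1.27, edgeR adjusted p = 0.0412) and Ltb (-0.43, edgeR adjusted p = 0.0433) in cHyper mTEClo were less firm. Cxcl11 was lost in 7 of 21 alternatives (adjusted p = 0.0504 to 0.13): limma-voom, and edgeR without cHyper mTEClo replicate 1 or 3, WT mTEClo replicate 1 or 2, cHyper mTEChi replicate 2 or WT mTEChi replicate 1. Ltb was lost in 12 of 21 (adjusted p = 0.0504 to 0.121): limma-voom, and edgeR over replicates 1 and 2 alone or without any 1 mTEClo library, any 1 cHyper mTEChi library or WT mTEChi replicate 2. Cxcl10 and Cxcl11 are induced by interferon as well as in placodes. In mTEChi 0 of the 11 were called between genotypes, beside 1.56% higher and 0.418% lower over all tested genes. There 1 had an unadjusted p under 0.05, and DESeq2 and limma-voom called 0. Between the cell types, 8 were called higher and 2 lower in mTEChi in cHyper, and 6 higher and 2 lower in WT, beside 38.7% and 25.8% of all genes in cHyper and 40.2% and 29.4% in WT. Foxi3, Dkk4 and Shh, near 0 in mTEClo, could hardly be called lower in mTEChi. Shh, which encodes the ligand Sonic hedgehog, had 2.73 ± 0.169 CPM in cHyper mTEChi and 0.203 ± 0.0977 CPM in cHyper mTEClo, and Fst fell to 6.47 ± 1.01 CPM in cHyper mTEChi, against 84.2 ± 18.8 CPM in cHyper mTEClo.

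Eda2r and Edar belong to the TNF receptor superfamily, of which 26 other genes were measured and tested. In mTEClo 4 were called higher in cHyper and 3 lower, beside 4.53% higher and 4.64% lower over all tested genes, with a median log2 change of 0.27 against 0.00 over all tested genes. Tnfrsf19, a receptor also known as TROY and near to Edar in sequence, had 11.2 to 14.3 CPM in cHyper mTEClo and 2.11 to 5.32 CPM in WT mTEClo (log2 1.75, SE 0.25, edgeR adjusted p = 0.000413). Tnfrsf21, death receptor DR6, averaged 72.6 ± 3.16 CPM in cHyper mTEClo and 36.9 ± 0.667 CPM in WT mTEClo (log2 0.98, SE 0.082, edgeR adjusted p = 3.69e-06). The death receptors Tnfrsf10b (log2 0.75, edgeR adjusted p = 0.00267) and Fas (log2 0.67, edgeR adjusted p = 0.0275) also rose. The log2 change of each of these 4 was below the 4.11 of Eda2r, which was chosen for its rise.

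The 3 receptors that fell in cHyper mTEClo were Tnfrsf22, Tnfrsf23 and Tnfrsf8. Tnfrsf22 averaged 6.13 ± 0.16 CPM in cHyper mTEClo and 15.4 ± 0.584 CPM in WT mTEClo (log2 -1.33, SE 0.15, edgeR adjusted p = 4.76e-05). Tnfrsf23 averaged 7.5 ± 1.35 CPM in cHyper mTEClo and 18.2 ± 1.16 CPM in WT mTEClo (log2 -1.28, SE 0.17, edgeR adjusted p = 0.000252). The pair are decoy receptors of close sequence, so their counts are uncertain where reads fit both. Tnfrsf8, which encodes CD30, had 9.66 ± 1.84 CPM in cHyper mTEClo and 16.1 ± 2.65 CPM in WT mTEClo (log2 -0.74, edgeR adjusted p = 0.00626). With the replicate block Tnfrsf25 was called lower too (log2 -0.96, edgeR adjusted p = 0.0328). Of the 7 calls only Fas was lost under an alternative, without cHyper mTEClo replicate 1 or 3, without WT mTEClo replicate 2 or 3, or over replicates 1 and 2 alone (edgeR adjusted p = 0.0623 to 0.203).

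**Figure D4:**
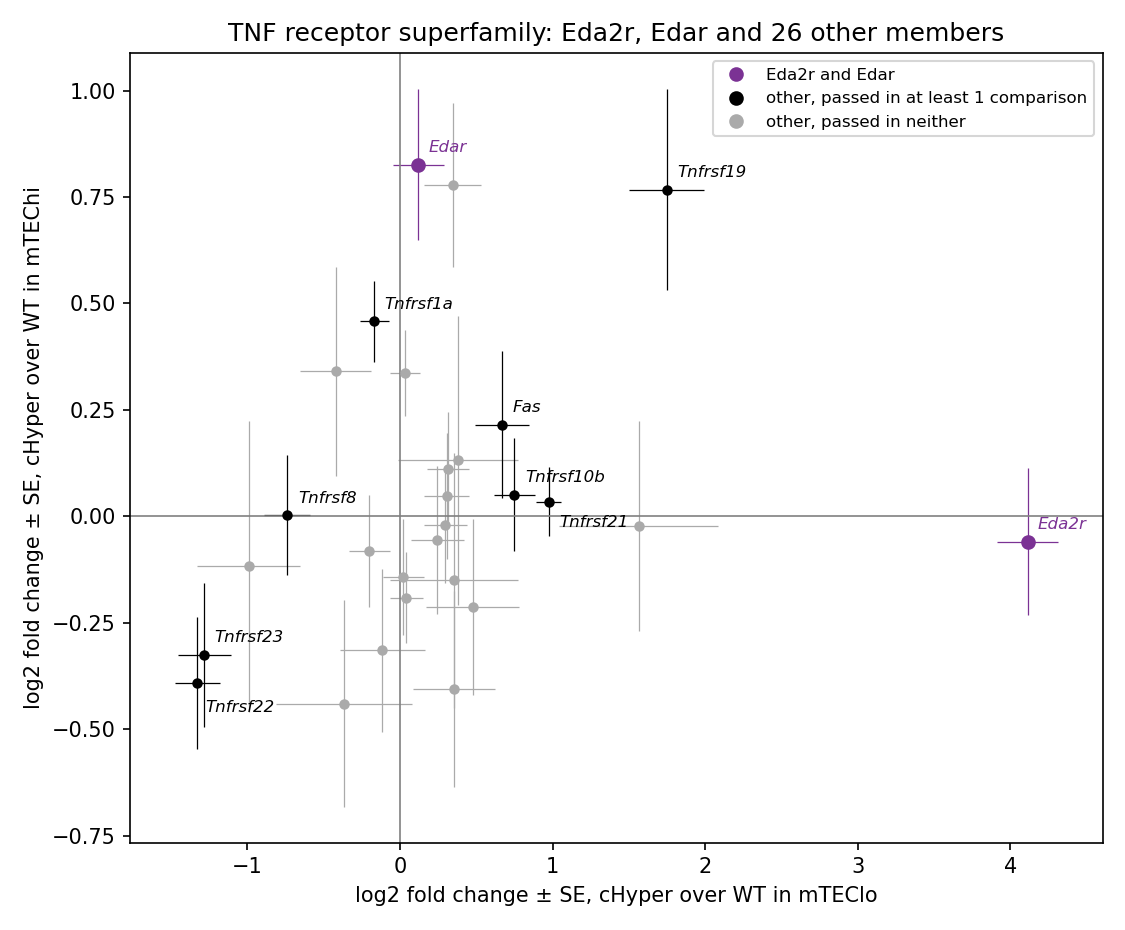
log2 fold change with SE of cHyper over WT in mTEClo (horizontal axis) and in mTEChi (vertical axis) for Eda2r, Edar (purple) and 26 other TNF receptor superfamily genes, black where at least 1 comparison passed. Eda2r lies at 4.11 and -0.06, Edar at 0.12 and 0.83, and Tnfrsf19 at 1.75 and 0.77.

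In mTEChi 1 of the 26 receptors was called between genotypes, beside 1.56% higher in cHyper and 0.418% lower over all tested genes. It was Tnfrsf1a, the main receptor of TNF, with 62.0 ± 5.93 CPM in cHyper mTEChi and 45.1 ± 1.55 CPM in WT mTEChi (log2 0.46, SE 0.096, edgeR adjusted p = 0.022). The call was lost without cHyper mTEChi replicate 1 or 3, without any 1 WT mTEChi replicate, or over replicates 1 and 2 alone (edgeR adjusted p = 0.0544 to 0.118). With the replicate block 3 receptors were called, and the added ones were Tnfrsf18 (log2 0.77, edgeR adjusted p = 0.0211) and Tnfrsf19 (log2 0.75, edgeR adjusted p = 0.0472). The receptors on which mTEC depend did not pass between genotypes. Tnfrsf11a (RANK) had 208 ± 4.53 CPM in cHyper mTEClo and 202 ± 8.75 CPM in WT mTEClo, and 295 ± 35.7 CPM in cHyper mTEChi and 337 ± 36.4 CPM in WT mTEChi. Cd40 had 52.8 ± 5.52 CPM in cHyper mTEClo and 43.0 ± 1.94 CPM in WT mTEClo, and Ltbr 92.8 ± 3.5 CPM in cHyper mTEClo and 90.8 ± 3.47 CPM in WT mTEClo. In mTEChi Ltbr had 33.6 ± 4.62 CPM in cHyper and 26.6 ± 1.02 CPM in WT, with no overlap of the libraries (log2 0.34, SE 0.10, edgeR adjusted p = 0.119).

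Between the cell types, 16 of 26 receptors were called higher and 7 lower in mTEChi in cHyper, beside 38.7% higher and 25.8% lower over all tested genes. In WT 16 were called higher and 8 lower, beside 40.2% and 29.4%. The list had medians of 0.94 and 1.32 on the log2 scale in cHyper and WT, against 0.13 and 0.12 over all tested genes. Some receptors near 0 in mTEClo could hardly be called lower in mTEChi, such as Tnfrsf17, with 41 fragments in cHyper mTEClo and 13 in WT mTEClo. Tnfrsf11b, the decoy receptor osteoprotegerin, rose by 3.53 on the log2 scale in cHyper mTEChi (edgeR adjusted p = 1.93e-10) and by 3.73 in WT mTEChi (edgeR adjusted p = 8.18e-11). Tnfrsf1a fell in mTEChi, as Edar did, by 1.53 in cHyper (edgeR adjusted p = 5.28e-09) and by 2.16 in WT (edgeR adjusted p = 1.9e-10). Ltbr fell by 1.77 in WT mTEChi (edgeR adjusted p = 1.53e-09).

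Ligands of the superfamily other than Eda were 17 genes, all tested. In mTEClo 2 were called lower in cHyper and 0 higher, beside 4.64% lower and 4.53% higher over all tested genes, with a median log2 change of 0.23 against 0.00. Tnfsf10, which encodes TRAIL, the ligand of Tnfrsf10b, had 110 ± 2.91 CPM in cHyper mTEClo and 147 ± 9.98 CPM in WT mTEClo (log2 -0.42, SE 0.092, edgeR adjusted p = 0.0102), and Ltb was the other. In mTEChi 0 were called between genotypes, beside 1.56% higher and 0.418% lower over all tested genes. There 1 had an unadjusted p under 0.05, and DESeq2 and limma-voom called 0. Between the cell types 15 of 17 were called higher and 2 lower in mTEChi in each genotype, beside 38.7% of all genes called higher in cHyper and 40.2% in WT. Some of the 15 were near 0 in mTEClo and could hardly be called lower in mTEChi. Fasl had 2 fragments in cHyper mTEClo and 0 in WT mTEClo, Cd40lg 6 and 4, and Tnfsf8 15 and 3. These genes also enter the mTEClo median. The rises in cHyper ranged from a log2 change of 0.90 for Tnfsf13b to 6.52 for Lta. Tnf had 25.8 ± 1.99 CPM in cHyper mTEChi and 0.545 ± 0.0487 CPM in cHyper mTEClo (log2 5.54, edgeR adjusted p = 1.12e-10). The 5 myeloid and dendritic markers also differed, with 472 to 525 CPM in cHyper mTEChi against 27.7 to 45.4 CPM in cHyper mTEClo. The 4 B cell markers summed to 28.7 to 33.9 CPM in cHyper mTEChi against 4.6 to 5.45 CPM in cHyper mTEClo. Their part in the ligand levels was not tested.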

How the data were processed

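Of 20 samples in 4 groups, replicates 1 and 2 were sequenced in 2 runs each, and the authors deposited 1 table with 12 columns of fragment counts, 1 per replicate; how the runs were joined is not stated. The submitters' processing notes name the build mm10 and, as tools, Subread 2.0.1 (featureCounts), TopHat2 2.1.1 and SAMtools 1.9. Neither strand setting nor annotation release is given in the sources used here, so overlapping, antisense and near-identical genes are uncertain. The deposited TPM and gene lengths set levels between genes and entered no test; TPM recomputed from the counts differed by at most 0.207.

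Counts were tested with the quasi-likelihood F test of edgeR 4.0.16 (R 4.3.3) after filterByExpr and TMM scaling, all 12 libraries in 1 fit on group means, 8 residual degrees of freedom, Benjamini-Hochberg adjusted p under 0.05 over 28932 genes. The code was tested on simulated data. CPM are on the TMM scale. Alternatives were DESeq2 1.42.0 (size factors, Wald test), limma-voom 3.58.1, library totals, other filters, only the groups compared, a replicate block, each library left out, and replicates 1 and 2 alone. Precision is set by 3 libraries a group and by the fragments per gene. Counts of list genes at an unadjusted p under 0.05 or with the block stand without the share of all genes, so no excess is read from them. The labels do not tie replicates to different animals; the p-values therefore reflect variation among libraries, which may be technical.

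Replicate numbers come from the labels. Libraries with the same number deviated together from their group means in 18 of 18 pairs (r = 0.141 to 0.397), and those with different numbers in 0 of 36 above 0.1. Deviations sum to 0 within a group, so the second count is not separate from the first. Replicate 3 also differed in sex and depth. The numbers thus go with shared deviations, which the replicate block takes up and the main fit does not.

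The 4 genes, the 4 pathway lists, the 9 marker lists and the tests were chosen with earlier results of these data known. Named genes are the members, Trp53, Cdkn1a and Mdm2 as context, up to 6 called genes of a list per comparison with the smallest p, the 8 (Eda2r) or 3 genes of highest correlation (log2 CPM, prior count 2, mean of at least 1 CPM) and the nearest tested neighbours, of which 1 is not reported here. Outside this rule, chosen after their values were seen, are Fas, Tnfsf13b, Tnfrsf11a, Cd40, Ltbr between genotypes and the genes called only with the block. The same holds for Tnfrsf1a, Fst and Ccn2 where they stand beside the Edar difference. Promoters are from RefSeq (GRCm38.p6); all 4 genes matched by symbol, and the p53 half-site and kappaB motifs were searched on both strands.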

Additional observations from a re-analysis of the deposited data

Results flagged for a closer look

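The genotype effect, cHyper against WT, was flagged as differing between mTEClo and mTEChi for Eda2r, not tested, and for some genes of the pathway lists. For Eda2r the effect in mTEClo exceeded that in mTEChi by 4.17 on the log2 scale; every cHyper mTEClo library lay above every mTEChi library and every WT mTEClo library below, and the difference was not tested because Eda2r was chosen for it.

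Over all tested genes, 0.926% had a called positive difference of the effects and 1.13% a called negative one. Of the pathway lists of 24, 11, 26 and 17 genes, 6 genes passed the edgeR test of the difference itself. For Tnfrsf21 it was 0.94 (edgeR adjusted p = 0.000901): the gene rose in cHyper mTEClo, with 72.6 CPM against 36.9 CPM in WT mTEClo, and had 33.5 CPM in cHyper mTEChi and 32.7 CPM in WT mTEChi. For Cxcl10 it was -1.59 (edgeR adjusted p = 0.00144), with 484 CPM in cHyper mTEChi and 485 CPM in WT mTEChi beside the fall in cHyper mTEClo. These 2 were called in all 20 alternatives. For Tnfrsf1a the difference was -0.63 (edgeR adjusted p = 0.0271), for Tnfsf10 -0.58 (edgeR adjusted p = 0.0351), for Tnfrsf22 -0.94 (edgeR adjusted p = 0.0376) and for Wnt10b 1.26 (edgeR adjusted p = 0.0464). These 4 calls were lost in 6, 10, 12 and 11 of 20 alternatives, in that order, always with the same sign. Tnfrsf1a was lost without cHyper mTEClo replicate 3, WT mTEClo replicate 1 or 2, cHyper mTEChi replicate 3 or WT mTEChi replicate 2 (edgeR adjusted p = 0.0517 to 0.07), and the other 3 when most single libraries were removed (edgeR adjusted p = 0.0529 to 0.119). Over replicates 1 and 2 alone the 4 calls were lost too (edgeR adjusted p = 0.0658 to 0.298), and Tnfrsf22 also with library totals (0.0594).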

How the results depend on the processing

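With 3 libraries a group, 1 of them at 22.02 to 25.31 M fragments, few calls near the threshold are firm; WT mTEClo held 158 fragments of Eda2r. Scaling by library totals moved the median log2 difference of mTEChi against mTEClo up by 0.17 in cHyper and 0.22 in WT. Causes of the changes listed here were not tested. The rise of Eda2r in cHyper mTEClo was 4.01 to 4.30 with each library left out, and its difference of mTEChi against mTEClo in cHyper was -1.52 with library totals (-1.69 with TMM).

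For Eda in mTEClo, cHyper against WT was -0.25 to 0.12 with each library left out. Its difference of mTEChi against mTEClo in cHyper was -0.39 with library totals and -0.66 to -0.50 with each library left out. In WT that difference was 0.028 with DESeq2 size factors, 0.027 with DESeq2, 0.15 with library totals, -0.54 over replicates 1 and 2 alone and -0.35 to 0.088 with each library left out. The rise of Edar in cHyper mTEChi was 0.68 to 0.93 with each library left out. For Edaradd in cHyper mTEClo the change was 0.37 with the replicate block, 0.49 over replicates 1 and 2 alone and 0.27 to 0.54 with each library left out. The difference of its genotype effects, -0.02, was 0.0020 with at least 10 counts in 3 libraries, 0.018 with DESeq2 size factors, 0.018 with DESeq2, 0.024 with library totals, 0.082 over replicates 1 and 2 alone and -0.13 to 0.14 with each library left out. With the replicate block the difference of the Edar effects was -0.72 and passed. Beside this call and that of Edaradd in mTEClo, the block changed no call of Eda, Edar or Edaradd.

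Genes called between genotypes in mTEChi numbered 572, and 1455 with DESeq2, 862 with limma-voom, 1126 over only the groups compared, 1251 with the block, 312 over replicates 1 and 2 alone and 296 to 678 with each library left out. Genes whose effects differed between the cell types numbered 595, and 1425 with DESeq2, 1103 with no filter, 1186 with the block, 282 over replicates 1 and 2 alone and 354 to 629 with each library left out.

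Of the placode genes, 2 had effects that differed, and 4 with DESeq2, 4 with no filter, 4 with the block and 1 to 3 with each library left out. Of the signalling genes, 1 was called in mTEClo, and 2 with DESeq2, 5 with the block, 0 over replicates 1 and 2 alone and 0 to 2 with each library left out; in mTEChi 0 were called, and 2 with the block. Of the receptors, 1 was called in mTEChi, and 3 with DESeq2, 2 with limma-voom, 3 with no filter, 3 over only the groups compared, 3 with the block, 0 over replicates 1 and 2 alone and 0 to 2 with each library left out. For 3 receptors the effects differed, and for 8 with DESeq2, 6 with no filter, 6 with the block, 1 over replicates 1 and 2 alone and 1 to 4 with each library left out. Of the ligands, 2 were called in mTEClo, and 1 with limma-voom, 1 over replicates 1 and 2 alone and 1 to 3 with each library left out. For 1 ligand the effects differed, and for 0 over replicates 1 and 2 alone and 0 to 1 with each library left out. Of the remaining values, 825 were taken as unchanged. For Eda, Edar and Edaradd this meant the same direction and side of the threshold, and for counts a value within 1.5 times. For Eda2r, which was not tested, it meant a shift no larger than the SD of its log2 CPM within groups.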
